A study of Homo sapiens with 20 samples.

Results

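Transcripts of 8 proteins that have been reported as substrates of the ubiquitin ligase HUWE1 were followed: TIAM1, SHOC2, POLB, POLL, TOPBP1, ZBTB17, HDAC2 and MFN2. The genes were chosen by name, with earlier results of these data known. All 8 were present among the 45372 gene symbols of both deposited tables. RNA was sequenced from HEK293T cells, a cell line of human embryonic kidney origin that expresses SV40 large T antigen. The cells had received small interfering RNA (siRNA), either targeting HUWE1 or non-targeting (NT). The 20 libraries formed 5 groups of 4: HUWE1 siRNA with no set number in the labels (called set 1 here) and its NT siRNA controls, and HUWE1 siRNA set 2 and HUWE1 siRNA set 3 with 1 group of NT siRNA controls that both sets share. The first table held set 1 and the second held sets 2 and 3. The design text describes the 4 libraries of a group as biological replicates. Neither the siRNA sequences, their dose and the time of harvest nor the difference between the sets is stated in the labels.

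HUWE1 is a very large HECT-domain ligase that passes ubiquitin from an E2 enzyme to lysines of its substrates, many of which are then degraded by the proteasome. A substrate is defined at the level of the protein, by ubiquitination or by a change in stability. RNA sequencing reads only the messenger RNA of these genes, so the values below describe the transcripts of the substrates and not the amounts or the ubiquitination of the proteins.

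HUWE1 itself lay between 83.5 and 86.9 TPM (abundance per transcript length, scaled so that every library has the same total) in HUWE1 siRNA set 1 and between 154.5 and 162.3 TPM in its NT controls. For sets 2 and 3 it lay between 91.6 and 96.8 TPM in HUWE1 siRNA set 2, between 79.9 and 89.7 TPM in HUWE1 siRNA set 3, and between 159.1 and 166.7 TPM in the shared NT controls. The mean after knockdown was therefore 54.1%, 57.9% and 51.9% of NT in sets 1, 2 and 3. Depth is unknown, because the deposited values of each library sum to the same total. Libraries of the same group correlated across genes at r between 0.993 and 0.998, and mitochondrially encoded genes took 24.3% to 26.2% of the TPM in the first table and 15.5% to 18.3% in the second. All 9 HEK293 and epithelial markers were present. They summed to between 884 and 924 TPM in HUWE1 siRNA set 1, against 991 to 1046 TPM in its NT controls. VIM, the most abundant, averaged 485 TPM in HUWE1 siRNA and 540.3 TPM in NT. In set 1, 2 markers were called higher, CDH2 (0.18) and EPCAM (0.28), and 4 lower (66.7%, against 30.3% of all genes). The lower ones were KRT18 (-0.14), VIM (-0.15), NEFL (-0.28) and NEFM (-0.60). In the second table the sum ran between 1138 and 1356 TPM in HUWE1 siRNA set 2, between 1260 and 1356 TPM in HUWE1 siRNA set 3 and between 1111 and 1313 TPM in NT. There VIM averaged 781 TPM in HUWE1 siRNA set 2, 863 TPM in HUWE1 siRNA set 3 and 686 TPM in NT. Its fold changes, 0.19 in set 2 and 0.34 in set 3, were not called. None of the 9 was called in set 2. In set 3, NEFL (-0.24) and NEFM (-0.36) were called lower and none higher (22.2%, against 11.6% of all genes). The 7 fibroblast markers summed to 19.3 to 20.9 TPM in HUWE1 siRNA set 1, against 16.8 to 18.4 TPM in NT without overlap, and of the 3 that could be tested there LUM was called higher (0.44). In the second table they ran between 7.90 and 9.39 TPM in HUWE1 siRNA set 2, between 8.74 and 9.50 TPM in HUWE1 siRNA set 3 and between 8.26 and 11.6 TPM in NT. Leukocyte and hepatocyte markers each summed to at most 8.30 TPM in any library, and most were too low to be tested. Of the 7 leukocyte markers, 3 were tested in set 1 and 2 in sets 2 and 3, and none was called. Of the 5 hepatocyte markers, 1 was tested in set 1 and not called, and none could be tested in sets 2 and 3. The part of these markers in the results was not tested. In bulk RNA, fewer cells of one kind and less RNA per cell cannot be told apart.

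The level of the 8 transcripts spanned about an order of magnitude. In the NT controls of set 1, MFN2 was the most abundant at 170.4 ± 2.33 TPM (SD, n = 4), followed by TOPBP1 at 66.2 ± 0.505 TPM. HDAC2 (41.2 ± 0.924 TPM), SHOC2 (39.6 ± 2.99 TPM) and POLL (38.6 ± 1.85 TPM) came next, and neighbours among these 3 did not differ beyond their spread. TIAM1 (27.0 ± 0.492 TPM) and ZBTB17 (26.9 ± 0.220 TPM) were level with each other, and POLB was lowest at 18.9 ± 0.412 TPM. The NT controls of sets 2 and 3 gave the same order for the 5 most abundant transcripts, with ZBTB17 (21.6 ± 1.67 TPM), TIAM1 (21.5 ± 3.15 TPM) and POLB (21.3 ± 0.602 TPM) together at the bottom. All 8 passed the filter on low values in both tables.

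**Figure D1:**
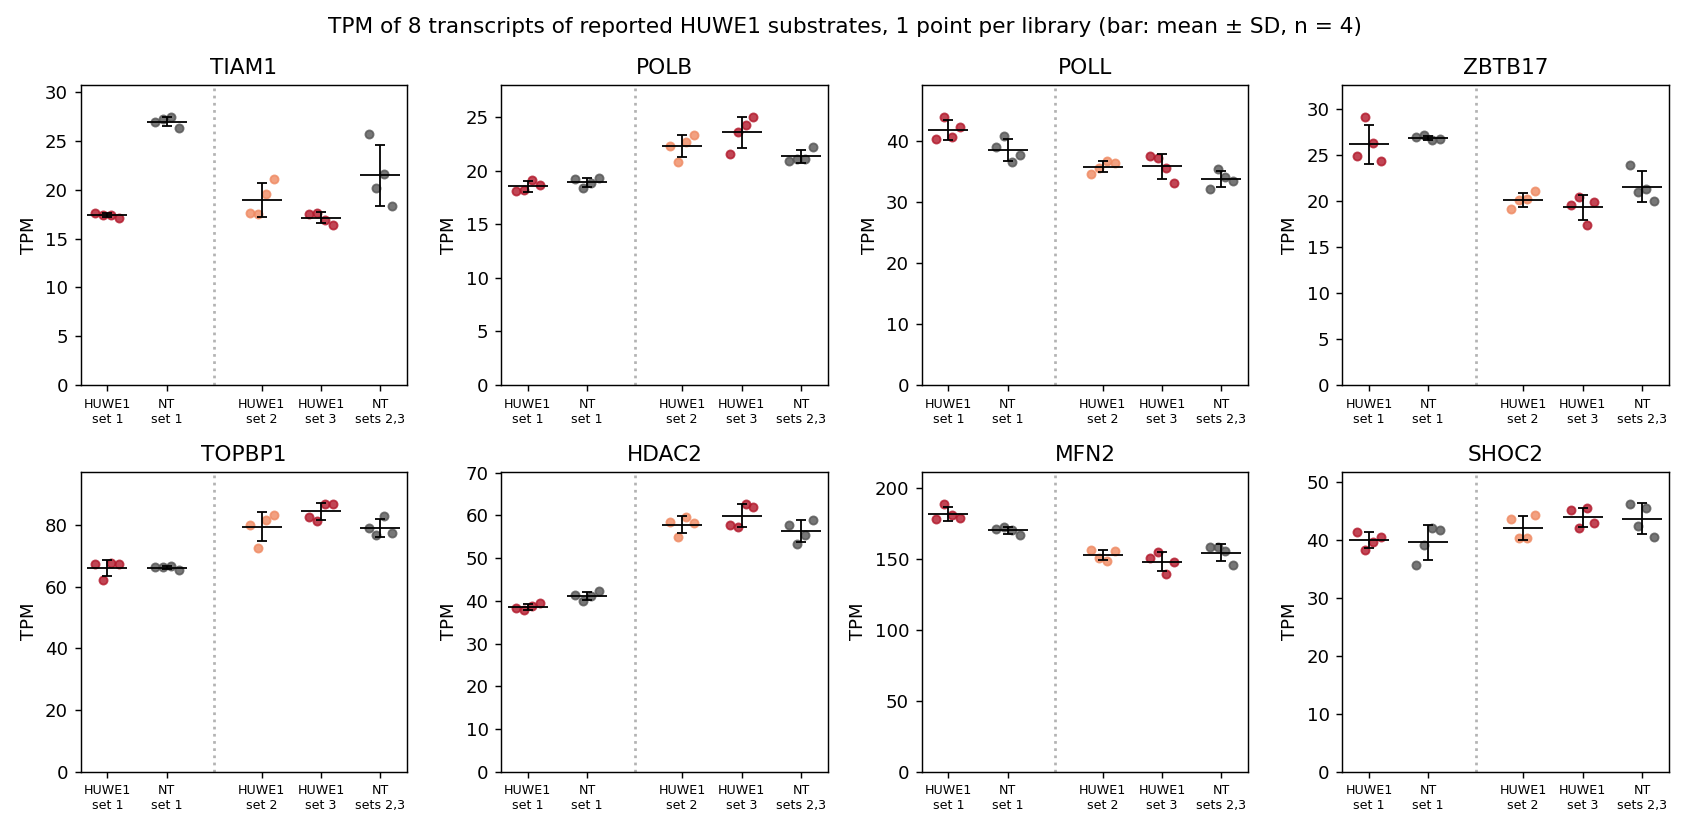
TPM of the 8 substrate transcripts in each library (points), with the mean and SD of each group of 4 (bars); HUWE1 siRNA stands to the left of NT siRNA in each table, and a dotted line separates the tables. TIAM1 sits between 17.1 and 17.6 TPM in HUWE1 siRNA set 1 and between 26.3 and 27.5 TPM in its NT controls, while the other 7 transcripts differ by much less.

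Of the 8 transcripts, 3 changed in set 1: TIAM1 and HDAC2 fell and MFN2 rose, at a Benjamini-Hochberg adjusted p under 0.05 by limma over the 16057 genes tested ("called" below). Over all genes, 30.3% were called in set 1, 12.3% higher and 17.9% lower, so 3 of 8 members is near the background. Of the genes called in set 1, 40.8% were higher, against 50.8% after quantile normalization. In set 2 none of the 8 was called by limma and none had an unadjusted p under 0.05, against 0.0126% called and 8.83% with an unadjusted p under 0.05 over all 15860 genes. In set 3, 1 of the 8 was called, TIAM1, which was lower, against 11.6% of all genes called, 7.45% higher and 4.15% lower. Of the genes called in set 3, 64.2% were higher, against 48.1% with median-of-ratios scaling, 52.4% after quantile normalization and 44.4% when TPM was recomputed without mitochondrially encoded genes. The number called in set 3, 1839, ran between 163 without HUWE1 siRNA replicate 3 and 5878 without NT replicate 4, so counts of calls in set 3 depend on single libraries. The median log2 fold change of the 8 was -0.02 in set 1, -0.0047 in set 2 and 0.05 in set 3, against -0.01, -0.0041 and 0.0074 over all genes tested. Their median absolute change, 0.07, 0.05 and 0.09, was below that of all genes, 0.10, 0.07 and 0.13, in sets 1, 2 and 3. All genes tested include those with a TPM near 1, and the 8 were not matched to them by level. Sets 2 and 3 share their controls, so their values are given side by side and are not independent of each other.

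**Figure D2:**
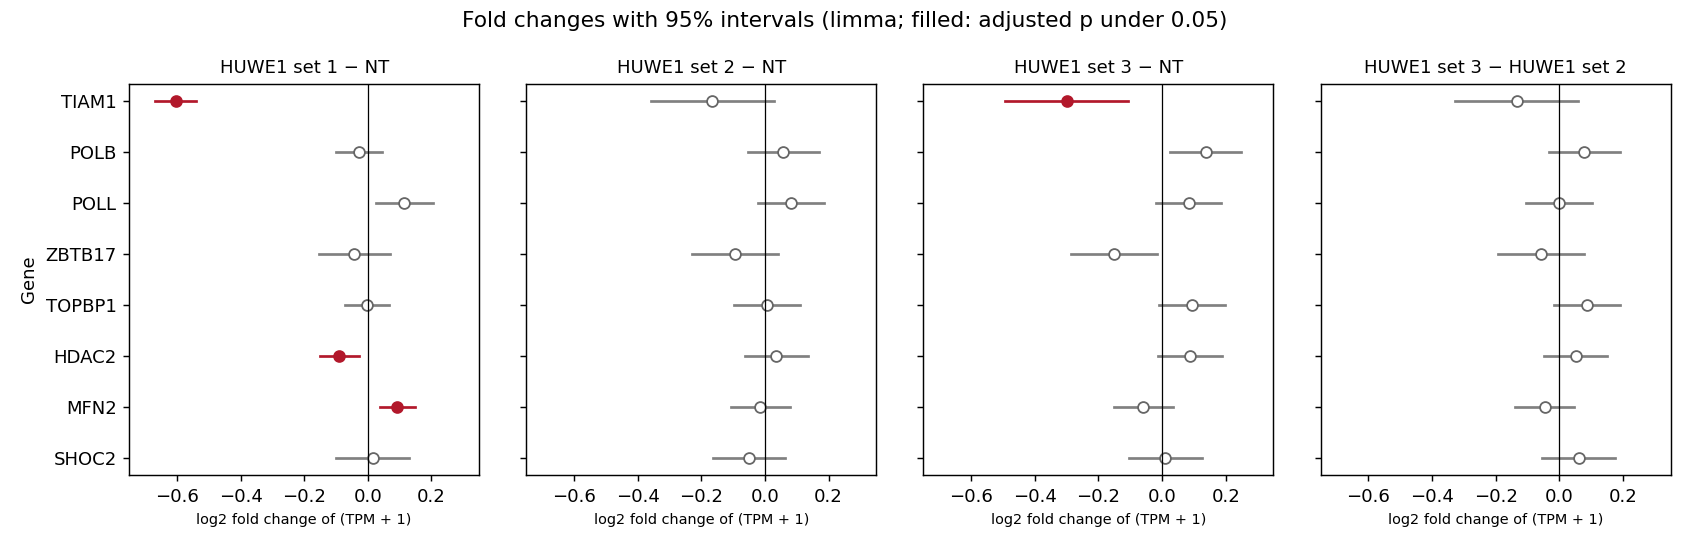
Log2 fold change of (TPM + 1) of each transcript with its 95% interval from limma, for HUWE1 siRNA minus NT in sets 1, 2 and 3 and for HUWE1 siRNA set 3 minus HUWE1 siRNA set 2; filled points have an adjusted p under 0.05. TIAM1 is at -0.60 in set 1, -0.17 in set 2 and -0.30 in set 3, and the other 7 lie between -0.15 and 0.14 throughout.

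TIAM1 encodes a guanine nucleotide exchange factor that loads the GTPase RAC1 with GTP at cell contacts and membrane ruffles. The gene (ENSG00000156299.13) lies on the minus strand at chr21:31118416-31559977 in GRCh38. In set 1 it was measured at 17.6, 17.4, 17.5 and 17.1 TPM in the HUWE1 siRNA libraries, against 26.9, 27.2, 27.5 and 26.3 TPM in the NT libraries. The 2 groups stood far apart, with every HUWE1 siRNA library below every NT library, as did 18.4% of all genes tested in this direction. The mean of the HUWE1 siRNA libraries, 17.4 ± 0.204 TPM, was 64.5% of the NT mean, 27.0 ± 0.492 TPM (SD, n = 4 each). The log2 fold change was -0.60 (SE 0.0286, 95% interval -0.67 to -0.54, adjusted p 4.4e-06). By p-value TIAM1 ranked 5 among the 16057 genes of set 1, and by fold change it ranked 94 from the most reduced. Its call held under all 17 alternatives tried for set 1, over which the fold change ran between -0.63 and -0.59.

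The second table gave TIAM1 at 17.6, 17.5, 19.6 and 21.1 TPM in HUWE1 siRNA set 2. HUWE1 siRNA set 3 gave 17.6, 17.6, 17.0 and 16.4 TPM, and the shared NT controls gave 25.7, 20.2, 21.7 and 18.3 TPM. Set 3 lay below all 4 controls, as did 6.03% of all genes, whereas set 2 overlapped them. The controls themselves were spread widely, with NT replicate 1 well above NT replicate 4. Set 3 differed from NT by -0.30 (SE 0.0889, 95% interval -0.49 to -0.11, adjusted p 0.0487), and set 2 by -0.17 (SE 0.0889, 95% interval -0.36 to 0.03, adjusted p 0.594). HUWE1 siRNA set 3 minus HUWE1 siRNA set 2 was -0.13 (95% interval -0.33 to 0.06, adjusted p 0.478), so the 2 sets were not shown to differ. The set 3 call did not hold when any 1 of its 8 libraries other than NT replicate 4 was left out, with adjusted p between 0.0654 and 0.126. Without NT replicate 1 the fold change was -0.21 (adjusted p 0.0952), and without NT replicate 4 it was -0.37 (adjusted p 0.0071). NT replicates 1 and 4 were the extremes of the control group for 51.6% of all genes tested, and the part of these libraries in the TIAM1 value was not tested.

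The stretches just upstream of the RefSeq starts of TIAM1 and of SHOC2 are shown because TIAM1 has the largest fold change of the 8 in sets 1, 2 and 3 and SHOC2 is among those with the smallest. Each is the 250 bases before a gene start from RefSeq on GRCh38.p14, 5′ to 3′ on the gene's strand, at chr21:31559088-31559337 (minus strand) for TIAM1 and at chr10:110919120-110919369 (plus strand) for SHOC2. The RefSeq start of TIAM1 lies inside the longer GENCODE span given above, so the TIAM1 window is upstream of the RefSeq start and within the GENCODE gene, whereas the SHOC2 window is upstream of both. Capitals mark matches, on either strand, to a GC box (GGGCGG or CCGCCC) or a CCAAT box (CCAAT or ATTGG), and the E-box CACGTG was searched as well.
TIAM1: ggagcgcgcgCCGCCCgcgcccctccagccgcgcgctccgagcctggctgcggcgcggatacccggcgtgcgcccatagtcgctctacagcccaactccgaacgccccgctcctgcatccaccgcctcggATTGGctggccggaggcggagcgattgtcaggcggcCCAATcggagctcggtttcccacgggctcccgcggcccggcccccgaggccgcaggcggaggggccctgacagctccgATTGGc
SHOC2: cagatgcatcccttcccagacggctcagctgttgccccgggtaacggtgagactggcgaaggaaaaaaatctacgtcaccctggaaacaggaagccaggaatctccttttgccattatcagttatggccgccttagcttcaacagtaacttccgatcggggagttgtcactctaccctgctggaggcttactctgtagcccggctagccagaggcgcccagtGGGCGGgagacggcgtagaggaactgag
The TIAM1 window holds 1 GC box and 3 CCAAT boxes and is 75.6% G and C, and the SHOC2 window holds 1 GC box and is 56.4% G and C. Neither window has a CACGTG. Over all 35116 RefSeq windows of this length, 42.6% hold a GC box, 32.01% a CCAAT box, 2.93% at least 3 CCAAT boxes and 6.34% an E-box. The matches describe these letters only. RefSeq windows were also matched for POLL, TOPBP1, HDAC2 and MFN2 and are not printed.

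Genes around TIAM1 in Rac activation were counted next. Of 30 genes of this list (Rac-family GTPases, their exchange factors, the polarity proteins that bind TIAM1, and downstream PAK and WAVE components), 7 were called in set 1 (23.3%, against 30.3% of all genes) and 4 in set 3 (13.3%, against 11.6%), and each of these was higher after HUWE1 siRNA. Over all genes, 12.3% were called higher and 17.9% lower in set 1, and 7.45% higher and 4.15% lower in set 3. DOCK4, an exchange factor for RAC1, had 4.51 ± 0.0600 TPM in HUWE1 siRNA set 1 and 3.50 ± 0.140 TPM in NT (0.29), but differed by -0.11 in set 2 and -0.07 in set 3, neither called. PAK2, a kinase activated by RAC1, rose by 0.14 in set 1 but differed by -0.02 in set 2 and 0.03 in set 3, neither called. IQGAP1, a scaffold that binds RAC1 and CDC42, rose by 0.10 in set 1 and 0.23 in set 3, and NCKAP1, a subunit of the WAVE complex, by 0.26 in set 3. The median of the list was 0.01 in set 1 and 0.04 in set 3, against -0.01 and 0.0074 over all genes. Over the 17 alternatives for set 1, 5 to 7 genes of the list were higher and none lower. Over the 19 for set 3, 0 to 8 were higher and 0 to 2 lower, the most in both directions without NT replicate 4. The set 3 count was 0 with no filter, with the replicate block, with the 2 groups compared alone and when NT replicate 1, 2 or 3 or HUWE1 siRNA replicate 1, 3 or 4 was left out. In set 3 the calls of IQGAP1 and NCKAP1 held under 10 of 19 alternatives each and were lost in most fits without 1 library. TIAM2, the closest paralog of TIAM1, was low and was called in none of the sets, with 5.08 ± 0.289 TPM in HUWE1 siRNA set 1 and 4.80 ± 0.211 TPM in NT (adjusted p 0.377).

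The genes whose levels followed TIAM1 most closely were TSR1, a factor of small ribosomal subunit maturation, and PTDSS1, which makes phosphatidylserine. Likeness was the smaller of the correlations of log2(TPM + 1) with TIAM1 over the 8 libraries of the first table and the 12 of the second, among 11005 genes tested in both with a mean of at least 5 TPM in each. TSR1 correlated with TIAM1 at r = 0.996 and 0.992, and PTDSS1 at 0.984 and 0.983, in the first and second table. TSR1 had 115.0 ± 1.26 TPM in HUWE1 siRNA set 1 and 132.1 ± 0.639 TPM in NT, a fold change of -0.20, and differed by -0.07 in set 2 and -0.16 in set 3 (adjusted p 0.0531). PTDSS1 differed by -0.18, -0.07 and -0.17 in sets 1, 2 and 3 (adjusted p 0.0624 in set 3). All 3 genes were highest in NT replicate 1 and lowest in NT replicate 4 among the controls of the second table, and these libraries also enter the correlations. The difference between HUWE1 siRNA and NT enters them as well. Fold changes of TSR1 and PTDSS1 in the direction of TIAM1 therefore follow in part from how they were chosen.

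**Figure D3:**
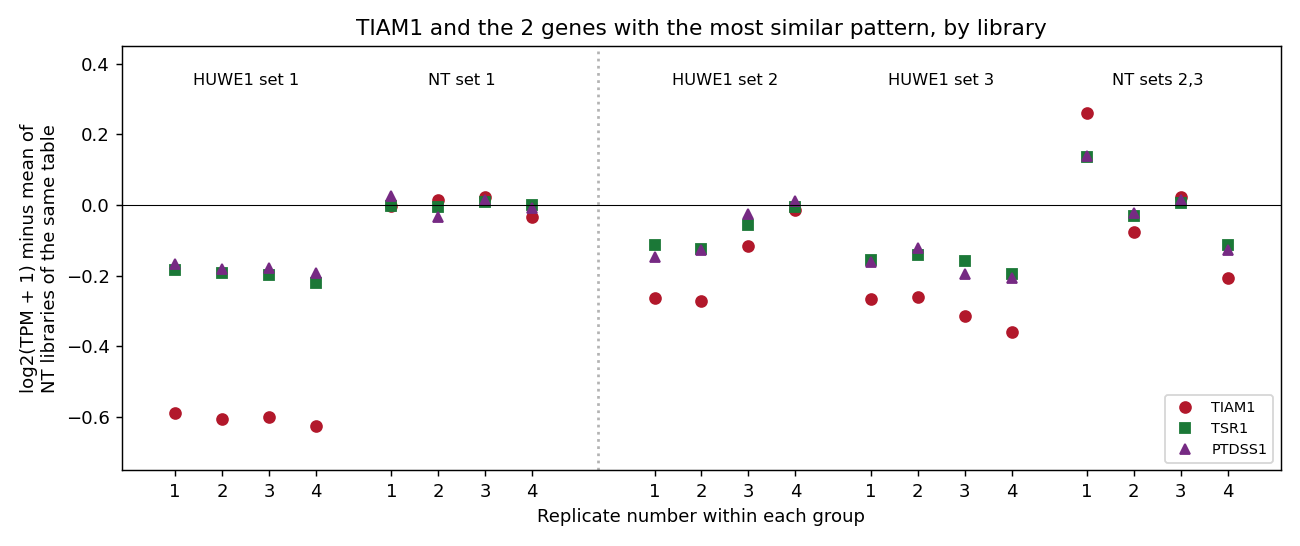
Log2(TPM + 1) of TIAM1, TSR1 and PTDSS1 in each of the 20 libraries, minus the mean of the NT libraries of the same table. TIAM1 is near -0.60 in all 4 libraries of HUWE1 siRNA set 1, and in the second table the 3 genes vary together across libraries, with TIAM1 at 0.26 in NT replicate 1 and -0.21 in NT replicate 4.

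SHOC2 encodes a leucine-rich repeat scaffold that, with MRAS and the phosphatase PP1, removes an inhibitory phosphate from RAF kinases. The gene (ENSG00000108061.11) lies at chr10:110919547-111013667 on the plus strand. SHOC2 had 41.4, 38.3, 39.7 and 40.4 TPM in HUWE1 siRNA set 1, against 35.6, 39.0, 42.0 and 41.7 TPM in NT. It averaged 42.1 ± 2.10 TPM in HUWE1 siRNA set 2, 43.9 ± 1.66 TPM in HUWE1 siRNA set 3 and 43.6 ± 2.69 TPM in the shared NT controls (SD, n = 4 each). The groups overlapped in all 3 sets and SHOC2 was called in none. Its 95% intervals bound the log2 change to between -0.10 and 0.13 in set 1, -0.16 and 0.06 in set 2, and -0.10 and 0.12 in set 3.

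Around SHOC2, 6 of 30 genes of the RAS-RAF-ERK module were called in set 1, 4 higher and 2 lower (20.0%, against 30.3% of all genes), and 5 in set 3, 3 higher and 2 lower (16.7%, against 11.6%). The set 1 counts depended on the scaling, with 8 higher and 1 lower under both median-of-ratios and quantile scaling and 7 higher and 1 lower without mitochondrial genes. They were 2 higher and 1 lower without the variance trend and when NT replicate 2 or 3 or HUWE1 siRNA replicate 3 or 4 was left out. Over the alternatives for set 3, 0 to 9 were higher and 1 to 6 lower. HRAS fell in both, by 0.21 in set 1 (69.9 ± 3.76 TPM in HUWE1 siRNA, 80.9 ± 2.78 TPM in NT) and by 0.30 in set 3. PTPN11, the phosphatase SHP2 that acts upstream of RAS, rose by 0.16 in set 1 and 0.30 in set 3. MAP2K2, a kinase directly upstream of ERK, rose by 0.25 in set 1. GRB2, the adaptor that couples receptors to SOS, fell in set 3 to 78.4 ± 2.09 TPM, against 101.1 ± 2.16 TPM in NT (-0.36), and was also lower than in HUWE1 siRNA set 2 (-0.30). In set 3 the call of GRB2 held under all 19 alternatives, that of PTPN11 under 16 and that of HRAS under 10, both losing it in some fits without 1 library.

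POLB and POLL encode X-family DNA polymerases. POLB fills the short gap left in base excision repair, and POLL acts in non-homologous end joining and in base excision repair. POLB (ENSG00000070501.11, plus strand) had 18.1, 18.2, 19.2 and 18.7 TPM in HUWE1 siRNA set 1, against 19.2, 18.4, 18.8 and 19.3 TPM in NT, and the groups overlapped (-0.03, adjusted p 0.539). In sets 2 and 3, POLB had 22.3, 20.9, 22.7 and 23.3 TPM in HUWE1 siRNA set 2 and 21.6, 23.6, 24.2 and 25.0 TPM in HUWE1 siRNA set 3. The NT controls gave 20.9, 21.1, 21.1 and 22.2 TPM. In HUWE1 siRNA set 3, 3 of the 4 libraries were above every NT library, and the remaining one lay below NT replicate 4. Set 3 differed from NT by 0.14 (SE 0.0512, 95% interval 0.03 to 0.25, adjusted p 0.0861) and set 2 by 0.06 (adjusted p 0.706), and neither passed the test. Without NT replicate 4 the set 3 value was 0.16 and was called (adjusted p 0.0411).

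POLL (ENSG00000166169.16, minus strand, chr10:101578882-101588270) had 40.4, 43.9, 40.7 and 42.3 TPM in HUWE1 siRNA set 1, against 39.1, 40.8, 36.5 and 37.8 TPM in NT. All 4 HUWE1 siRNA libraries were above the NT mean, but the groups overlapped. The difference of 0.11 (SE 0.0406, 95% interval 0.02 to 0.21) had an adjusted p of 0.0564 and passed the threshold under 5 of the 17 alternatives, among them without NT replicate 2 (0.14, adjusted p 0.0271) and without HUWE1 siRNA replicate 1 (0.13, adjusted p 0.0499). In sets 2 and 3, POLL averaged 35.8 ± 0.953 TPM in HUWE1 siRNA set 2, 35.9 ± 2.05 TPM in HUWE1 siRNA set 3 and 33.8 ± 1.34 TPM in NT, a difference of 0.08 in each set (adjusted p 0.608 in set 2 and 0.227 in set 3). The whole POLL gene, 9389 bases, lies within DPCD on the opposite strand. The library kit keeps strand, but the labels do not say whether the counting used it, so reads of the 2 genes may be mixed. POLM, another X-family paralog of POLL, was called in none of the sets (23.1 ± 0.902 TPM in HUWE1 siRNA set 1, 21.9 ± 1.22 TPM in NT, adjusted p 0.251).

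Of 25 other base excision repair genes, 10 were called in set 1, 2 higher and 8 lower. This was a larger share than the 30.3% of all genes called in set 1, 12.3% higher and 17.9% lower. In set 3, 2 of the 25 were called, 1 in each direction, a smaller share than the 11.6% of all genes. The 8 lower calls of set 1 were 5 with no filter, with median-of-ratios scaling, without the variance trend and when NT replicate 1, 3 or 4 or HUWE1 siRNA replicate 3 or 4 was left out. Over the alternatives for set 3, 0 to 8 were higher and 1 to 4 lower. FEN1, the flap nuclease, fell to 436 ± 12.7 TPM in HUWE1 siRNA set 1, against 519 ± 13.9 TPM in NT (-0.25). The abasic endonuclease APEX1 fell in sets 1 (-0.18) and 3 (-0.21). The thymine glycosylase TDG rose in sets 1 (0.22) and 3 (0.25), and PARP1, which senses strand breaks, rose by 0.15 in set 1. Among 13 end joining genes, 3 were called in set 1, 1 higher and 2 lower (23.1%, against 30.3% of all genes). In set 3, 2 were called, both higher (15.4%, against 11.6%), a count that fell to 0 in most fits without 1 library. PRKDC, the catalytic subunit of DNA-PK, fell in set 1 by 0.15 and DCLRE1C, the nuclease Artemis, by 0.21. XRCC4, the partner of ligase IV, rose by 0.18 in set 1 and by 0.39 in set 3 (26.3 ± 2.21 TPM in HUWE1 siRNA, 19.9 ± 2.94 TPM in NT), where the groups overlapped. XRCC5, which encodes Ku80, rose by 0.28 in set 3 with overlapping groups and an adjusted p just under the threshold. In set 3 the call of APEX1 held under all 19 alternatives, that of XRCC4 under 13, that of TDG under 5 and that of XRCC5 under 3. In set 1 the call of XRCC4 held under 11 of 17, with losses in fits without 1 library.

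TOPBP1 encodes a BRCT-repeat protein that activates the checkpoint kinase ATR and takes part in the firing of replication origins. The gene (ENSG00000163781.13, minus strand) lies at chr3:133598175-133662380. It had 67.2, 62.2, 67.6 and 67.4 TPM in HUWE1 siRNA set 1, against 66.4, 66.3, 66.6 and 65.5 TPM in NT. HUWE1 siRNA replicate 2 was low and the other 3 were above the NT mean, and the fold change was -0.0028 (95% interval -0.07 to 0.07). TOPBP1 averaged 79.4 ± 4.71 TPM in HUWE1 siRNA set 2, 84.4 ± 2.81 TPM in HUWE1 siRNA set 3 and 79.0 ± 2.81 TPM in NT. It differed from NT by 0.0052 in set 2 (adjusted p 0.974) and by 0.09 in set 3, where the groups overlapped (95% interval -0.0096 to 0.20, adjusted p 0.179).

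The ATR checkpoint and origin firing list had 11 of its 26 genes called in set 1, 3 higher and 8 lower (42.3%, against 30.3% of all genes; 6 to 8 lower over the alternatives), and 21 of the 26 had a negative fold change. A negative fold change in set 1 was found for 8581 of all 16057 genes tested. The median of the list in set 1 was -0.06, against -0.01 over all genes. It was 0.02 in set 2 and 0.0074 in set 3, where 11 and 12 of the 26 genes had a negative fold change. CDC25A, a phosphatase that activates cyclin-dependent kinases, fell to 114 ± 8.53 TPM in HUWE1 siRNA set 1, against 158 ± 4.91 TPM in NT (-0.47). CLSPN, the adaptor claspin that carries the ATR signal to CHK1, fell to 61.7 ± 2.11 TPM in HUWE1 siRNA set 1, against 80.3 ± 2.73 TPM in NT (-0.38). TIPIN, a fork protection factor, fell by 0.25 in set 1. CDC25A, CLSPN and TIPIN differed by -0.08, 0.03 and 0.02 in set 2 and by -0.06, -0.05 and 0.0075 in set 3, none called. In set 3, 1 gene of the list was called (3.85%, against 11.6% of all genes). CDC45, a helicase factor, had 100.6 ± 2.04 TPM in HUWE1 siRNA set 3 and 87.9 ± 7.07 TPM in NT and did not pass (0.20, adjusted p 0.0505), while in set 1 it rose by 0.10.

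ZBTB17 encodes the zinc finger factor MIZ1, which activates genes such as those of cell cycle inhibitors and represses them when bound by MYC. The gene (ENSG00000116809.11, minus strand) lies at chr1:15941869-15976132. It had 24.9, 29.1, 26.3 and 24.4 TPM in HUWE1 siRNA set 1, against 26.9, 27.2, 26.7 and 26.8 TPM in NT. The NT libraries were tightly grouped and the HUWE1 siRNA libraries fell on both sides of them (-0.04, adjusted p 0.56). ZBTB17 had 19.1, 20.1, 20.2 and 21.1 TPM in HUWE1 siRNA set 2 and 19.6, 20.5, 17.4 and 19.9 TPM in HUWE1 siRNA set 3. The NT controls gave 23.9, 21.0, 21.3 and 20.0 TPM. All 8 HUWE1 siRNA libraries of the second table were below the NT mean, but both sets overlapped the controls. The differences of -0.09 in set 2 (adjusted p 0.643) and -0.15 in set 3 (SE 0.0626, 95% interval -0.29 to -0.01, adjusted p 0.114) did not pass. Without NT replicate 4 the set 3 value was -0.18 and was called (adjusted p 0.0410), and without NT replicate 1 it was -0.10 (adjusted p 0.277).

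Of 18 partners and targets of ZBTB17, 4 were called in set 1, 2 in each direction (22.2%, against 30.3% of all genes), and 6 in set 3, 4 higher and 2 lower (33.3%, against 11.6%). The set 3 calls were 1 higher and none lower with the replicate block and when NT replicate 2 or 3 or HUWE1 siRNA replicate 1, 3 or 4 was left out, and 7 in each direction without NT replicate 4. CDKN1A, the cell cycle inhibitor p21 and a target that ZBTB17 activates, rose in set 3 to 64.7 ± 2.85 TPM, against 44.1 ± 2.38 TPM in NT (0.55, adjusted p 0.000218), and was also higher than in HUWE1 siRNA set 2 (0.59). Against NT, CDKN1A differed by 0.04 in set 1 and -0.05 in set 2, neither called. CDKN1C, the inhibitor p57, rose in set 1 to 11.3 ± 1.42 TPM, against 8.46 ± 0.596 TPM in NT (0.37), but differed by -0.17 in sets 2 and 3, neither called. MYC fell by 0.18 in set 1, with 210.0 ± 5.91 TPM in HUWE1 siRNA and 237 ± 8.68 TPM in NT. HCFC1, a chromatin cofactor that binds both MYC and ZBTB17, fell by 0.21 in set 1 and 0.35 in set 3. ZBTB4, a methyl-CpG binding repressor, rose by 0.14 in set 1 and 0.17 in set 3. In set 3 the call of CDKN1A held under all 19 alternatives, and those of HCFC1 and ZBTB4 under 10 each, with losses in most fits without 1 library.

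HDAC2 encodes a class I histone deacetylase of the SIN3, NuRD and CoREST complexes. The gene (ENSG00000196591.11, minus strand) lies at chr6:113933028-114011308 and shares 41608 bases with HDAC2-AS2 on the opposite strand. In set 1 it had 38.4, 37.8, 38.8 and 39.5 TPM in the HUWE1 siRNA libraries, against 41.3, 40.1, 41.1 and 42.3 TPM in NT. The HUWE1 siRNA libraries were all below the NT libraries, at 93.8% of their mean, and the fall was small: -0.09 (SE 0.0275, 95% interval -0.15 to -0.03, adjusted p 0.0324). The call was lost under 8 of 17 alternatives. These were median-of-ratios scaling (-0.07, adjusted p 0.0641), quantile normalization (-0.07, adjusted p 0.0644), and leaving out NT replicate 1, 3 or 4 or HUWE1 siRNA replicate 1, 2 or 3, with adjusted p between 0.0625 and 0.0882. The second table gave HDAC2 at 58.4, 54.9, 59.7 and 58.1 TPM in HUWE1 siRNA set 2 and 57.8, 57.3, 62.7 and 61.9 TPM in HUWE1 siRNA set 3. The NT controls gave 57.8, 53.3, 55.5 and 58.8 TPM. The groups overlapped, with differences of 0.04 in set 2 (adjusted p 0.781) and 0.09 in set 3 (95% interval -0.01 to 0.19, adjusted p 0.193). The paralog HDAC1 was called in none of the sets. It had 227 ± 5.13 TPM in HUWE1 siRNA set 1 and 215.8 ± 5.15 TPM in NT without overlap, a difference of 0.07 (adjusted p 0.0549).

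Of 36 other subunits and regulators of class I deacetylase complexes, 9 were called in set 1, 2 higher and 7 lower (25.0%, against 30.3% of all genes), and 5 in set 3, 1 higher and 4 lower (13.9%, against 11.6%). Over the alternatives for set 1, 2 to 4 were higher and 3 to 8 lower, with 3 lower without HUWE1 siRNA replicate 4, and 4 lower with no filter or without NT replicate 1, NT replicate 3 or HUWE1 siRNA replicate 3. The higher calls were 4 with median-of-ratios scaling, with quantile scaling and without HUWE1 siRNA replicate 1. Over those for set 3, 0 to 8 were higher and 2 to 13 lower, the most without NT replicate 4. HDAC3, the deacetylase of the NCoR and SMRT complexes, fell in set 1 to 105 ± 2.11 TPM, against 119 ± 2.79 TPM in NT (-0.18). In set 3 it fell to 84.6 ± 2.68 TPM, against 105 ± 2.11 TPM in NT (-0.31), and it was lower there than in HUWE1 siRNA set 2 (-0.22). SAP30, a subunit of the SIN3 complex, fell by 0.23 in set 1 and 0.38 in set 3. MTA2, a NuRD subunit, fell by 0.19 in set 1 and 0.18 in set 3, and ING2, which recruits SIN3 to methylated histone H3, by 0.21 in set 1. In set 3 the calls of HDAC3 and SAP30 held under all 19 alternatives and that of MTA2 under 8, and in set 1 the call of SAP30 held under 10 of 17.

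MFN2 encodes a GTPase of the outer mitochondrial membrane that fuses mitochondria and tethers them to the endoplasmic reticulum. The gene (ENSG00000116688.16, plus strand) lies at chr1:11980181-12013514. It had 178, 189, 181 and 179 TPM in HUWE1 siRNA set 1, against 171, 173, 170.3 and 167 TPM in NT. Every HUWE1 siRNA library was above every NT library, as for 13.3% of all genes in this direction, and their mean was 107% of NT. The rise was 0.09 (SE 0.0248, 95% interval 0.04 to 0.15, adjusted p 0.0183) and was called under 16 of 17 alternatives, the exception being without NT replicate 4 (0.08, adjusted p 0.0512). In the second table MFN2 averaged 153 ± 3.84 TPM in HUWE1 siRNA set 2, 148 ± 6.51 TPM in HUWE1 siRNA set 3 and 155 ± 6.13 TPM in NT. The groups overlapped and the differences were -0.01 in set 2 (adjusted p 0.912) and -0.06 in set 3 (95% interval -0.15 to 0.03, adjusted p 0.331). MFN1, its paralog, was called in none of the sets (16.5 TPM in HUWE1 siRNA set 1, 15.7 TPM in NT, adjusted p 0.246).

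Of 28 other genes of mitochondrial fusion, fission and transport, 8 were called in set 1, 3 higher and 5 lower (28.6%, against 30.3% of all genes), and 4 in set 3, 1 higher and 3 lower (14.3%, against 11.6%). The 3 higher calls of set 1 were 0 without NT replicate 3, and 1 when NT replicate 1 or 2 or HUWE1 siRNA replicate 3 or 4 was left out, while the lower calls ran between 5 and 6. The set 3 alternatives gave 0 to 6 higher and 2 to 7 lower. MTFP1, an inner membrane protein that promotes fission, fell in set 1 to 73.7 ± 2.74 TPM, against 94.8 ± 3.36 TPM in NT (-0.36), and by 0.39 in set 3. MIEF1, a receptor for the fission GTPase DRP1, fell by 0.32 in set 1, and PGAM5, a mitochondrial phosphatase, by 0.21 in set 1. RHOT2, a GTPase that links mitochondria to motor proteins, was called in both sets with opposite signs, 0.14 in set 1 and -0.26 in set 3 (61.9 ± 1.51 TPM in HUWE1 siRNA, 74.1 ± 2.59 TPM in NT), and the difference between these sets was not tested. The set 3 calls of MTFP1 and RHOT2 held under all 19 alternatives, and the set 1 call of RHOT2 under 16 of 17.

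**Figure D4:**
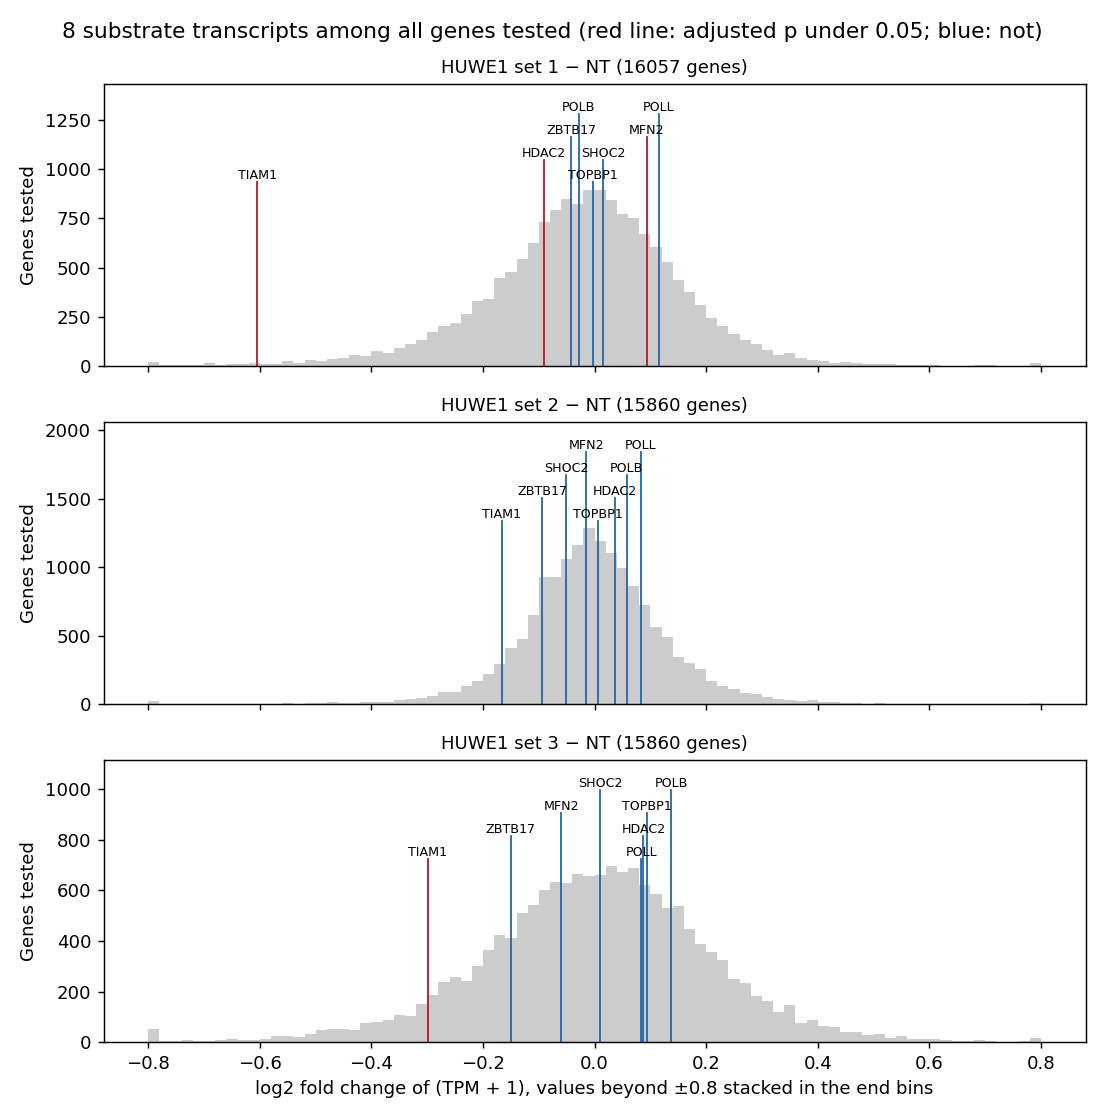
Histograms of the log2 fold change of (TPM + 1) over all genes tested in sets 1, 2 and 3 (HUWE1 siRNA minus NT), with a line at each of the 8 transcripts, red where called and blue where not. TIAM1 lies in the lower tail of set 1 at -0.60, and the other 7 lie between -0.09 and 0.11 there.

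HUWE1 siRNA set 3 was also compared with HUWE1 siRNA set 2, in the same model. None of the 8 transcripts was called by limma and none had an unadjusted p under 0.05, and all 8 overlapped between the sets, against 0.517% called, 15.8% with an unadjusted p under 0.05 and 13.2% without overlap over all 15860 genes. The differences ran between -0.13 for TIAM1 and 0.09 for TOPBP1. In set 2 against NT, likewise, all 8 transcripts overlapped with the controls, against 3.69% of all genes without overlap. HUWE1 itself was lower in set 3 than in set 2 in all 4 libraries, with a log2 difference of -0.16 (adjusted p 0.134).

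Among themselves the 8 transcripts did not vary as 1 group. Within groups, after the mean of each group was removed, ZBTB17 and MFN2 deviated together (r = 0.89 over the 8 libraries of the first table and 0.69 over the 12 of the second), as did POLB and HDAC2 (0.75 and 0.69). HDAC2 and MFN2 deviated in opposite directions (-0.71 and -0.61), and so did POLL and HDAC2 (-0.50 and -0.59). The pairs above were alike in both tables, and others were not. ZBTB17 and TOPBP1 gave -0.88 in the first table and -0.02 in the second, and TIAM1 and HDAC2 -0.72 and 0.06. TIAM1 and ZBTB17 gave 0.08 and 0.74, POLL and MFN2 0.69 and 0.14, and POLL and ZBTB17 0.49 and -0.07. All these values describe libraries that all 8 genes share. The longest coding transcripts of POLL, ZBTB17 and MFN2 have a GC content of 60.1%, 62.3% and 53.6%, and those of SHOC2, HDAC2, TOPBP1, POLB and TIAM1 have 37.2%, 38.2%, 42.8%, 44.2% and 49.7%, and the part of GC content in these deviations was not tested. Among the NT controls of the second table, replicate 1 was the highest and replicate 4 the lowest for TIAM1, ZBTB17, MFN2 and SHOC2, as for 29.5% of all genes, and the reverse held for POLB, as for 22.1%.

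By the same measure of likeness as for TIAM1, the other 7 transcripts had neighbours with weaker correlations. Differences between groups enter this measure, so fold changes in the direction of the member follow in part from the choice. ZBTB17 was most like RTEL1 (r = 0.93 in the first table and 0.91 in the second) and HTRA2 (0.96 and 0.86). HDAC2 was most like CDC5L (0.90 and 0.90) and MRPL1 (0.92 and 0.88), and MFN2 most like SETD1A (0.93 and 0.90) and FBXW5 (0.87 and 0.88). CDC5L, a splicing factor, fell in set 1 by 0.21 and MRPL1, a mitochondrial ribosomal protein, by 0.16, while in set 3 MRPL1 was called higher (0.21, adjusted p 0.0401) and CDC5L was not called. SETD1A, a histone H3 methyltransferase, rose in set 1 by 0.10 and FBXW5, an F-box protein, by 0.15, and neither was called in set 3. SHOC2 was most like CLIC4 (0.86 and 0.88) and ZBTB10 (0.94 and 0.85), POLB most like RTRAF (0.85 and 0.86), which was called higher in set 3 (0.19, adjusted p 0.0435), and SSB (0.85 and 0.82), POLL most like FOCAD (0.79 and 0.81) and FBXO10 (0.95 and 0.78), and TOPBP1 most like UGP2 (0.79 and 0.81).

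A list of 20 further reported HUWE1 substrates was set beside the 8, of which 19 were tested in set 1 and 18 in sets 2 and 3. In set 1, 9 of the 19 were called, 1 higher and 8 lower (47.4%, against 30.3% of all genes; 6 to 8 lower over the alternatives), and 17 of the 19 had a negative fold change. Among all 16057 genes tested in set 1, 8581 had a negative fold change. The median of the 19 was -0.09, against -0.02 for the 8 members and -0.01 over all genes. DDIT4, an inhibitor of mTORC1 signalling, fell in set 1 to 724 ± 74.7 TPM, against 1196 ± 43.3 TPM in NT (-0.73), and in set 3 to 829 ± 88.6 TPM, against 1475 ± 378 TPM in NT (-0.80). CDC6, which loads the replicative helicase, fell by 0.29 in set 1 but differed by 0.0071 in set 2 and -0.03 in set 3, neither called. NR1D1, a nuclear receptor of the circadian clock, fell by 0.34 in set 1 and 0.32 in set 3. The set 3 call of DDIT4 held under 16 of 19 alternatives and that of NR1D1 under 9, with losses in fits without 1 library. In set 3, 5 of the 18 were called, 2 higher and 3 lower (27.8%, against 11.6% of all genes), and over the alternatives 0 to 4 were higher and 0 to 8 lower, with none in either direction without HUWE1 siRNA replicate 3 or 4. Over all 9 lists together, limma called 65 of 218 distinct genes in set 1 (29.8%, against 30.3% of all genes) and 33 of 217 in set 3 (15.2%, against 11.6%). In set 2 it called none of 217, and 16 had an unadjusted p under 0.05 (7.37%, against 8.83%).

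**Figure D5:**
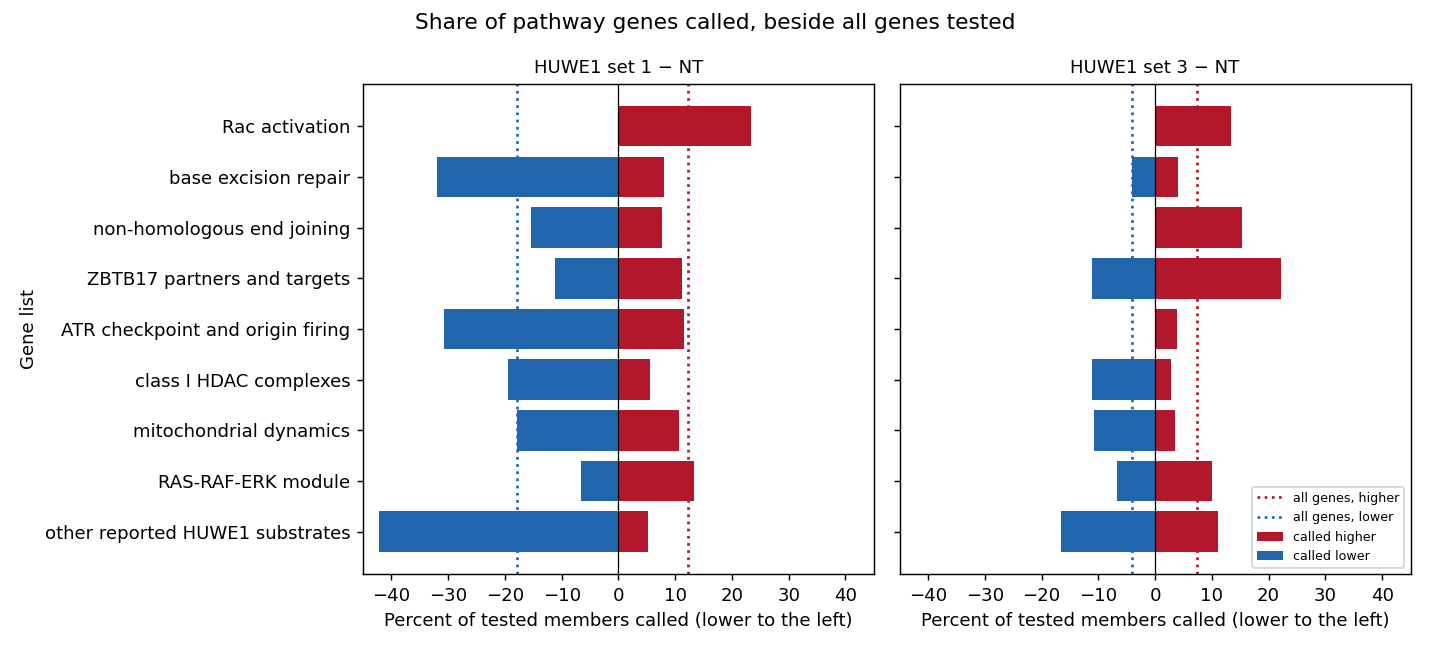
Share of the tested genes of each of the 9 lists that were called higher (right, red) or lower (left, blue) after HUWE1 siRNA in sets 1 and 3; dotted lines mark the same shares over all genes tested. In set 1 the lines stand at 12.3% higher and 17.9% lower, and in set 3 at 7.45% and 4.15%; the Rac activation list has bars on the higher side alone in both panels, as 2 other lists do in set 3.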

How the data were processed

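Polyadenylated RNA of HEK293T cells was sequenced from stranded libraries, per the labels' protocols. TPM values were deposited by the authors in 2 tables, and the submitters' processing notes name the hg38 build. The aligner, the counting tool and the gene models were not given in the sources used here. All per-sample columns were used. Every library has an identical TPM sum, which leaves depth unknown, so counting intervals were not computed.

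Values were taken as log2(TPM + 1), with a pseudocount of 1, and a gene was tested where at least 4 libraries of its table reached a TPM of 1. The test was limma 3.58.1 in R 4.3.3, with moderated variances that follow a mean trend and Benjamini-Hochberg adjustment over every gene tested. Fold changes are HUWE1 siRNA minus NT, and on this scale they are too small for low genes. Set 1 was fitted on 8 libraries, and sets 2 and 3 in 1 model of 12 libraries with shared controls. Since the tables were normalized separately, no test crossed them. The procedure was tested on simulated data.

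The members and the lists were chosen with earlier results of these data known. The 9 lists held 226 entries and 219 distinct genes, all found in the tables. Genes named are the members, HUWE1, the paralogs TIAM2, POLM, HDAC1 and MFN1, and the 2 genes most like each member. From each list, the 3 genes with the smallest p in set 1 and the 2 in set 3 are named. Some genes chosen this way are not reported here. Gene coordinates are from GENCODE release 29 on GRCh38, and upstream sequences from RefSeq on GRCh38.p14.

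Alternatives changed 1 choice at a time: the pseudocount (0.1), the filter (none, or a mean of at least 5 TPM), the scaling (median-of-ratios, quantile, or TPM recomputed after removal of mitochondrially encoded genes), the variance model (no trend, or robust), a block for the replicate number, a fit on the 2 groups compared alone, and the omission of each library. The omission of NT replicates 1 and 4 of the second table together was added after seeing the data. The labels give the groups the same replicate numbers, but the deviations of same-numbered libraries did not correlate above 0.1 in every pair, so samples were treated as unpaired. These correlations ran between -0.48 for replicate 4 in set 2 and 0.41 for replicate 4 in set 3, where replicate 1 gave 0.20.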

Additional observations from a re-analysis of the deposited data

Results flagged for a closer look

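Over 13 genes in 5 groups, 65 groups of 4 libraries were checked for a library far from the other 3, and 2 were found, where chance gives about 1 in 20. POLB in NT replicate 4 of the controls of sets 2 and 3 was at 22.2 TPM, above the other 3 controls, which lay between 20.9 and 21.1 TPM. TOPBP1 in HUWE1 siRNA set 1 replicate 2 was at 62.2 TPM, below the other 3 libraries, which lay between 67.2 and 67.6 TPM, and below all 4 NT libraries. Without this library the TOPBP1 fold change in set 1 was 0.03 (limma adjusted p 0.408).

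HDAC2 had fold changes of opposite sign in sets 3 and 1, called in set 1 alone. Every HUWE1 siRNA library was above the NT mean in set 3 and every one below it in set 1. The log2 fold changes, 0.09 in set 3 and -0.09 in set 1, differ by 0.18. The difference was not tested, because the sets are in tables that were normalized separately.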

How the results depend on the processing

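Of 584 recomputed values (8 members in 4 comparisons), 531 kept their direction and call, 20 lost a call, 7 gained one and 26 changed sign, each of the last uncalled and near 0. The sign changes were in TOPBP1 in set 1 (0.014 by median-of-ratios, 0.023 by quantile scaling, 0.0056 without mitochondrial genes, -0.014 to 0.026 leaving out 1 library), SHOC2 in set 1 (-0.034 to 0.044 leaving out 1 library), TOPBP1 in set 2 (-0.0094 without mitochondrial genes, -0.0088 without NT replicates 1 and 4, -0.019 to 0.047 leaving out 1 library), SHOC2 in set 3 (-0.021 without mitochondrial genes, -0.00077 without NT replicates 1 and 4, -0.025 to 0.038 leaving out 1 library) and POLL in set 3 against set 2 (-0.010 by median-of-ratios, -0.0062 by quantile scaling, -0.016 without mitochondrial genes, -0.023 to 0.037 leaving out 1 library). Members called in set 1 ran from 1 (without NT replicate 4) to 4 when 1 library was left out. In set 3 they were 0 with no filter, without the variance trend, with the replicate block and with only the 2 groups compared, and 0 to 3 leaving out 1 library (3 without NT replicate 4: TIAM1, POLB and ZBTB17). Genes called in set 2 were 1 with median-of-ratios scaling, without the variance trend, with the replicate block and with only the 2 groups compared, 6 without mitochondrial genes, and 1 to 2 leaving out 1 library. Genes called in set 3 were 698 with no filter, 693 with the replicate block, 360 with only the 2 groups compared, 3245 without NT replicates 1 and 4, and 163 to 5878 leaving out 1 library. In set 3 against set 2 they were 42 with no filter, 17 with the replicate block, 335 with only the 2 groups compared, and 20 to 68 leaving out 1 library. The block changed no member's call other than TIAM1 in set 3 (adjusted p 0.0866) and POLL in set 1 (called, adjusted p 0.0317). The causes were not tested. Depth is unknown, and 4 libraries per group limit the precision to the intervals given.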
